A study of Mus musculus with 4 samples.

Results

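Messenger RNA of 9 genes was followed in single cells of mouse tumours and tumour-draining lymph nodes (TDLN): 6 genes of STAT transcription factors (Stat2, Stat3, Stat4, Stat5a, Stat5b and Stat6) and 3 genes of their feedback inhibitors (Socs1, Socs3 and Cish). They were chosen by symbol, and all 9 are among the 31253 genes of each library. The tumours were CT26, a mouse colon carcinoma line, in female mice of 4 to 8 weeks, whose strain and number the sources used here do not give. NanoCa, per the series title, is a lipid nanoparticle with a calcium crystal structure, made for immunotherapy through interferon beta. The 4 groups, with 1 library each, were tumour with NanoCa, tumour with mock, TDLN with NanoCa and TDLN with mock. The treatment tag of the mock libraries reads no treatment, but a protocol field names NanoCa for all 4 libraries, so every ratio takes the names and tags as correct. The sources used here do not give dose, schedule or harvest time. Cells were sorted after a CD45 stain whose gate is not given, and all 4 libraries carry 1 batch date.

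After filtering, 10202 (NanoCa) and 8583 (mock) tumour cells and 10038 and 9414 TDLN cells were kept. The libraries held 74909974 to 167924801 UMIs (unique molecular identifiers, each standing for 1 captured RNA molecule), and pairs of libraries shared 121 to 183 barcodes. The samples are labelled as infiltrating immune cells, but the most common tumour class, 6774 and 5818 cells with NanoCa and mock, held almost no Ptprc, the CD45 gene. Ptprc was at 2.32 and 2.865 CPM there against 517 and 531 CPM in tumour T cells. These are called Ptprc-low Xist-low cells below, and TDLN held 334 and 1042 of them. CPM is the UMIs of a gene per 1e6 UMIs summed over a class, given with exact Poisson 95% intervals. Ratios, NanoCa divided by mock, are on a log2 scale with exact conditional binomial 95% intervals. Pairs of values are given as NanoCa and mock, in that order, unless said otherwise. With 1 library per group there is no test, every interval covers counting error alone, and a difference between treatments cannot be told apart from one between libraries. Levels of different genes are not ranked against each other, since 3' UMIs are not per length.

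Cytokines and interferons bind receptors that carry Janus kinases. These kinases phosphorylate STAT proteins, which pair, enter the nucleus and switch on genes. STAT2 works with IRF9 downstream of type I interferon, STAT3 downstream of interleukins such as IL-6 and IL-10, STAT4 downstream of IL-12, the STAT5 pair downstream of IL-2 and IL-7, and STAT6 downstream of IL-4 and IL-13. SOCS1, SOCS3 and CIS, the product of Cish, are induced by STATs and damp the receptors and kinases that induced them. The messenger level says nothing of phosphorylation, on which STAT activity depends.

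The start-site windows of the 3 feedback genes and of Stat2 are shown because they hold letters through which STATs are known to act. They are from RefSeq (GRCm38.p6), 250 bases before to 25 after the start, on the gene's strand. Capitals mark matches to the gamma-activated sequence TTCNNNGAA, which is its own reverse complement, and to the interferon-stimulated response element core GAAANNGAAA, read on both strands. Cish lies at chr9:107296409-107296683 on the plus strand, Socs3 at chr11:117969342-117969616 on the minus strand, Socs1 at chr16:10785512-10785786 on the minus strand and Stat2 at chr10:128270248-128270522 on the plus strand.
Cish: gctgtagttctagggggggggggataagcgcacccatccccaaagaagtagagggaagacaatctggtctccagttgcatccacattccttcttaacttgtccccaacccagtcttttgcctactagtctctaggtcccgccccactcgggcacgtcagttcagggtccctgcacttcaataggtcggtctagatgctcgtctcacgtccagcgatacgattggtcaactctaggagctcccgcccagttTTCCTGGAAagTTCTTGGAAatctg
Socs3: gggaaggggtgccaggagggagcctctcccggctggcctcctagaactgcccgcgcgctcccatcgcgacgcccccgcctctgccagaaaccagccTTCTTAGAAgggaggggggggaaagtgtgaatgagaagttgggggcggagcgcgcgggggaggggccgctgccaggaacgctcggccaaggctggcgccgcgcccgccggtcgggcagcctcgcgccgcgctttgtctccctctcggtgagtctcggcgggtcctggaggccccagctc
Socs1: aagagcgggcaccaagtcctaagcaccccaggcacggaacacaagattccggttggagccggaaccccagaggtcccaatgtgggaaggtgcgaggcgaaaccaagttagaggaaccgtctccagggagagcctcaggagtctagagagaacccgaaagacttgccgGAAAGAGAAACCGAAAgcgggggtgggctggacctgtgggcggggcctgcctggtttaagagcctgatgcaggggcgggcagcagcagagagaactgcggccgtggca
Stat2: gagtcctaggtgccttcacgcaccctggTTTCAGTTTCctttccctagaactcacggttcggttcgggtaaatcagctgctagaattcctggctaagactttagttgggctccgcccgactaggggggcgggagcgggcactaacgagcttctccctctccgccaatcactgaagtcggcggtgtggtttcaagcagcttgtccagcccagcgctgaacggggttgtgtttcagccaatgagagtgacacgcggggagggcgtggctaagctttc
The window of Cish held the gamma-activated sequence at 2 places, from base 1 and from base 12 after the start. Socs3 held it once, from base -154. Socs1 held 2 overlapping response element cores, GAAAGAGAAA from base -83 and GAAACCGAAA from base -77. Stat2 held 1 core in the other orientation, TTTCAGTTTC from base -222, and the second of the 2 windows of Stat4 held GAAAGTGAAA from base -97. Windows of 300 bases, to base 50 after the start, were searched for all 9 genes (12 windows), and those of the other members held neither motif. Over all 32851 windows of that table, 8.3% held the gamma-activated sequence and 3.44% the response element core. A match describes letters and is no evidence of binding.

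**Figure D1:**
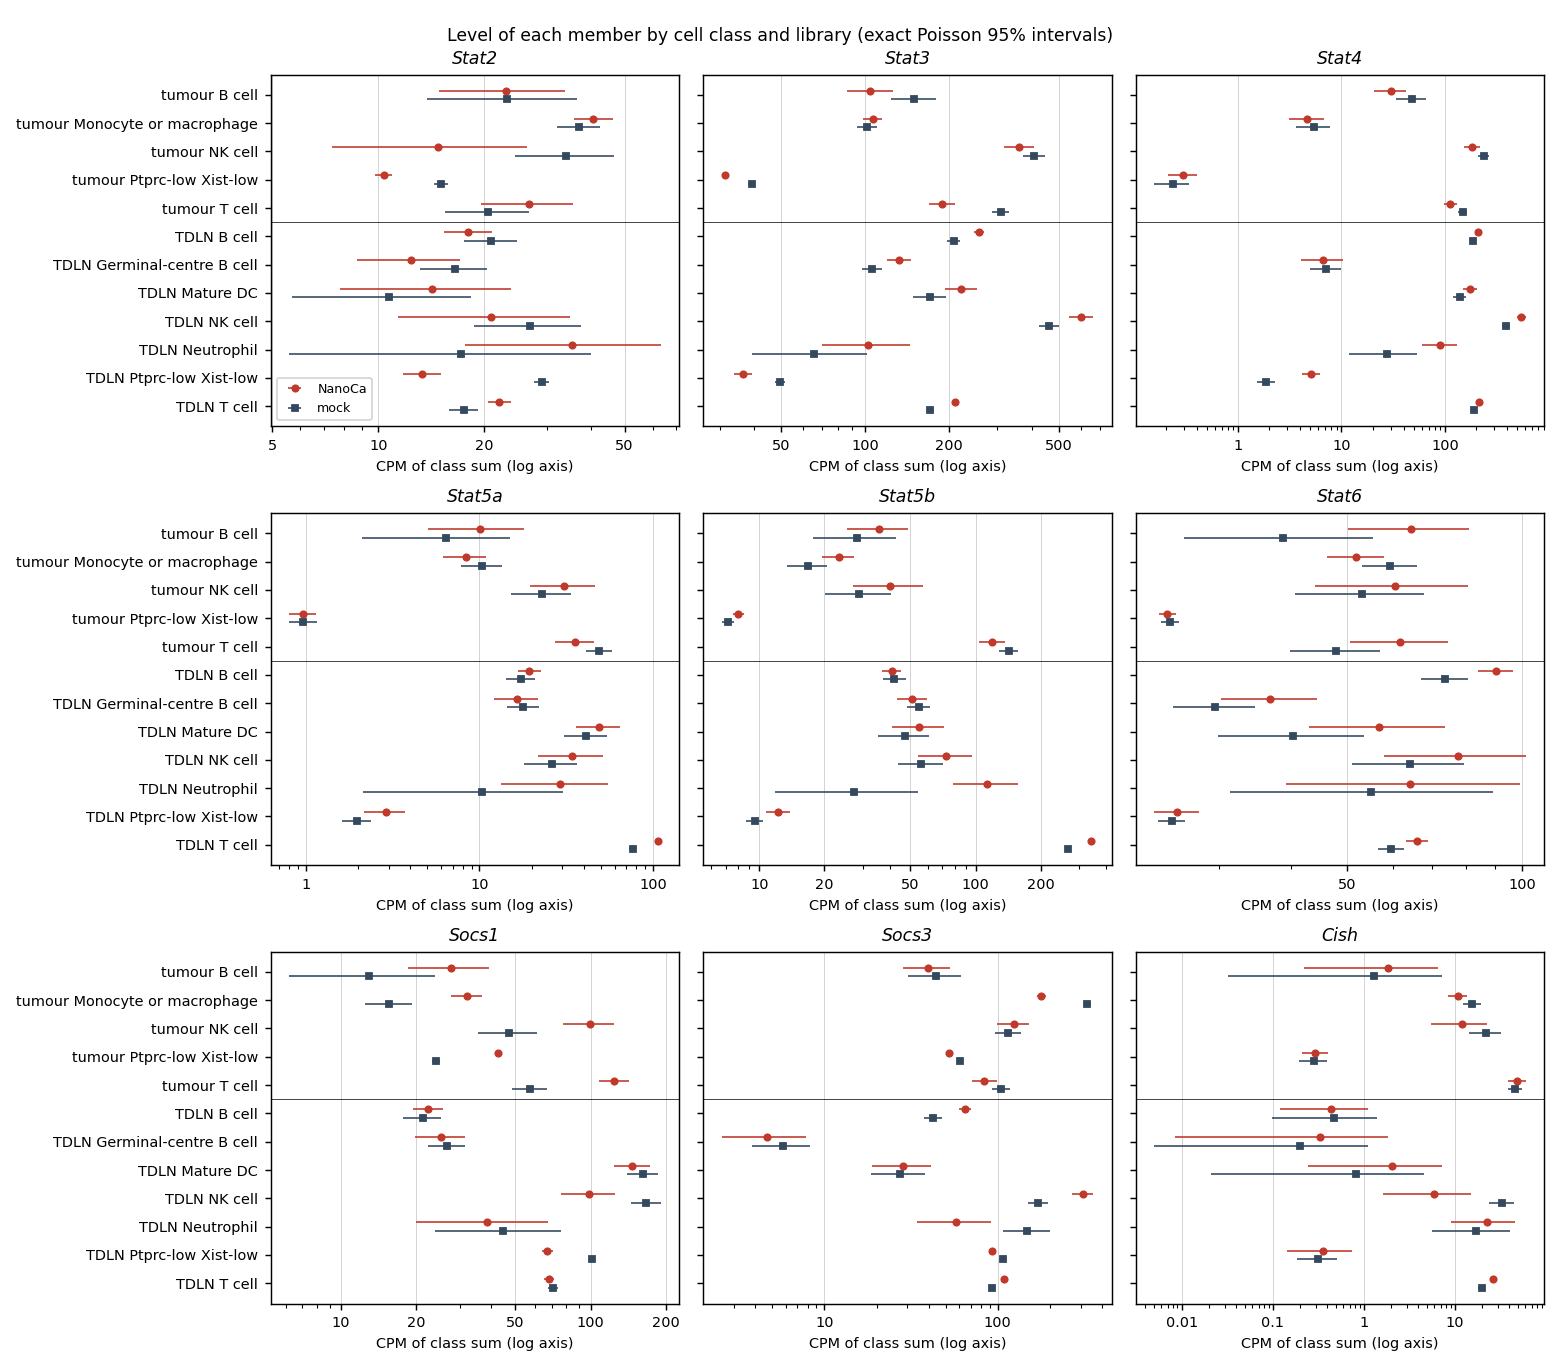
Level of each gene (CPM of the class sum, log axis) in the 12 classes of at least 100 cells per library; red circles are NanoCa, dark squares mock, and bars exact Poisson 95% intervals. Stat4 is high in NK cells of both tissues and near the bottom in Ptprc-low Xist-low cells, while Stat6 stays within a narrow range.

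Stat4 (ENSMUSG00000062939), the factor that drives interferon gamma in killer and helper cells, was highest in NK cells. TDLN NK cells held 548 (494 to 607) and 395 (361 to 431) CPM, and tumour NK cells 184 (154 to 217) and 238 (211 to 268) CPM. T cells came next in the tumour, with 113 and 149.7 CPM. In TDLN, T cells held 215 (210.3 to 221) and 193.5 (188 to 199) CPM and B cells 207 (198 to 217) and 185.5 (175 to 196.5) CPM, and the intervals of these classes overlapped in both libraries. Germinal-centre B cells, the dividing and mutating B cells, held only 6.69 and 7.13 CPM. Mature dendritic cells (DC) of TDLN held 176 and 139 CPM, while tumour monocytes and macrophages held 4.66 and 5.45 CPM and tumour Ptprc-low Xist-low cells 0.293 and 0.234 CPM. Among TDLN T cells, the follicular helper T-like subset, which helps B cells, was highest with mock at 346 CPM, and Cd4-high cells were at 156 CPM.

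The share of cells with a Stat4 UMI gave the same split between B cell classes. Of TDLN mock cells thinned to 1000 UMIs, 40.6% (exact Clopper-Pearson 33.1 to 48.4%) of 170 NK cells and 16.45% of 1611 B cells had one. The share was 0.557% (0.0675 to 2.00%) of 359 germinal-centre B cells and 0.390% (0.106 to 0.996%) of 1025 Ptprc-low Xist-low cells. Unthinned, the 4 shares were 86.05%, 43.0%, 5.48% and 6.53%, at median depths of 5463.5, 3574, 10828 and 53745.5 UMIs per cell. The thinned germinal-centre share, on 2 UMIs, lay within the interval of Ptprc-low Xist-low cells. By CPM with mock the 2 classes lay apart, at 7.13 (4.99 to 9.87) in germinal-centre B cells and 1.86 (1.51 to 2.26) in Ptprc-low Xist-low cells.

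Stat5a (ENSMUSG00000004043) and Stat5b (ENSMUSG00000020919) are neighbouring, near-identical genes downstream of IL-2 and IL-7, and how reads matching both were counted is not given, so their separate levels are uncertain. Both were highest in TDLN T cells, where Stat5b was at 343 (336 to 349.6) and 266 (259.8 to 273) CPM and Stat5a at 107 (103 to 110.4) and 76.1 (72.7 to 79.65) CPM. Tumour T cells held 119 and 142 CPM of Stat5b and 35.5 and 48.9 CPM of Stat5a. In TDLN mock, Stat5b in NK cells, at 56.1 (43.85 to 70.8) CPM, and in germinal-centre B cells, at 54.7 (48.4 to 61.5) CPM, did not differ beyond their intervals, and B cells were at 42.1 CPM. Tumour monocytes and macrophages held 23.3 and 16.7 CPM of Stat5b and tumour Ptprc-low Xist-low cells 8.01 and 7.18 CPM. Among TDLN mock T cells, Stat5b was highest in the Cd4-high subset at 356 CPM, and cytotoxic Cd8-high cells held 105 CPM. Stat5a was highest in regulatory T-like cells, which depend on IL-2, at 166 and 120 CPM.

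Stat3 (ENSMUSG00000004040), downstream of IL-6, IL-10 and IL-21, was also highest in NK cells among the classes, with 602 (545 to 663.5) and 460.2 (424 to 499) CPM in TDLN and 359 (317 to 405) and 405 (369.7 to 443.5) CPM in the tumour. In TDLN mock, plasmacytoid DC at 302 (256 to 353) CPM, fibroblasts at 241 (213 to 271.5) CPM and B cells at 209 (198 to 220.5) CPM followed, each overlapping its neighbour in that order. T cells and mature DC, at 172 and 171 CPM, did not differ beyond their intervals. Germinal-centre B cells at 106 CPM and Ptprc-low Xist-low cells at 49.4 CPM were lower.

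Stat6 (ENSMUSG00000002147), downstream of IL-4 and IL-13, was the most evenly spread by ratio of highest to lowest mock level. Over the 12 classes of the plot of levels by class, the mock libraries ran from 24.7 CPM in tumour Ptprc-low Xist-low cells to 73.6 CPM in TDLN B cells. Stat2 (ENSMUSG00000040033), the interferon factor, ran over the same classes from 10.7 CPM in TDLN mature DC to 37.1 CPM in tumour monocytes and macrophages. Plasmacytoid DC, known producers of type I interferon, held 71.6 (50.4 to 98.65) CPM of Stat2 in TDLN mock. The 29 such cells of tumour mock held 123 (73.0 to 195) CPM, on 18 UMIs. The 71 of tumour NanoCa held 41.2 (24.4 to 65.1) CPM, also on 18 UMIs. These tumour groups were unlike. Free RNA, estimated from Krt8, Krt18 and Rhox5, was 59.8% of their UMIs with NanoCa and 20.1% with mock. A cluster with Ptprc at 104 CPM, against 899 CPM in the other, held 26 of the NanoCa cells and 3 of the mock cells. The part of either in the Stat2 difference was not tested. Both mock Stat2 values of plasmacytoid DC exceeded TDLN mock T cells at 17.5 (15.9 to 19.2) CPM. Fibroblasts at 70.0 (55.4 to 87.3) CPM and monocytes and macrophages at 49.4 (41.0 to 59.1) CPM in TDLN mock overlapped the plasmacytoid DC of that library.

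In the mock libraries the 3 feedback genes were highest in different classes. Some classes held both SOCS genes, as NK cells of TDLN mock did, with 167 CPM of Socs1 and 171 CPM of Socs3. Socs3 (ENSMUSG00000053113), the inhibitor of receptors for IL-6 and granulocyte colony-stimulating factor, was highest in the mock libraries in tumour neutrophils and in monocytes and macrophages, while TDLN mock neutrophils were at 148 CPM. Tumour neutrophils held 464 (352 to 599.5) and 383 (306 to 473) CPM. Among mock libraries, monocytes and macrophages held 327 (312 to 343) CPM in the tumour and 306 (284 to 328) CPM in TDLN, which overlapped each other and the neutrophils. With NanoCa, TDLN NK cells at 310 (269 to 355) CPM exceeded TDLN monocytes and macrophages at 189 (166 to 215) CPM. Germinal-centre B cells were lowest, at 4.69 and 5.74 CPM, and other TDLN B cells held 64.95 and 42.4 CPM.

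Socs1 (ENSMUSG00000038037), the inhibitor of interferon receptors and of receptors with the common gamma chain, was highest in TDLN mock in NK cells, at 167 (145 to 191) CPM, and mature DC, at 162 (140.4 to 186.5) CPM. These did not differ beyond their intervals. Fibroblasts at 124 (104 to 146) CPM and monocytes and macrophages at 121 (108 to 136) CPM overlapped next. Ptprc-low Xist-low cells followed at 102 (99.1 to 104.5) CPM, an interval that touches that of fibroblasts but lies under that of monocytes and macrophages, then T cells at 70.6 CPM. B cells at 21.2 CPM and germinal-centre B cells at 26.5 CPM overlapped. Among TDLN mock T cells, the 21 gamma-delta T-like cells held 322 CPM, on 41 UMIs. Regulatory T-like cells, which restrain other T cells, held 149.8 CPM, and Cd4-high cells 44.5 CPM.

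Cish (ENSMUSG00000032578), a STAT5-induced gene whose product restrains T and NK cell signalling, separated T cells from B cells. TDLN T cells held 26.3 (24.5 to 28.2) and 19.7 (18.01 to 21.55) CPM, and B cells 0.441 and 0.475 CPM. Of TDLN mock cells thinned to 1000 UMIs, 1.73% of 5039 T cells and 0.0621% of 1611 B cells had a Cish UMI. The unthinned shares were 6.72% and 0.184%, at median depths of 4315 and 3574 UMIs. Regulatory T-like cells were high in both tissues, with 102 and 84.35 CPM in TDLN and 96.4 and 117 CPM in the tumour. The highest subset in TDLN was gamma-delta T-like cells, at 113.6 and 149.4 CPM in 28 and 21 cells. In tumour NanoCa it was Cd4-high cells, at 101 CPM. The Cd8-high cells not named cytotoxic held 4.599 and 2.56 CPM in TDLN, though a cluster of them had the cytotoxic marker Nkg7 among its leading genes. Outside T cells, tumour conventional DC held 39.5 and 79.0 CPM, on 18 and 27 UMIs.

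**Figure D2:**
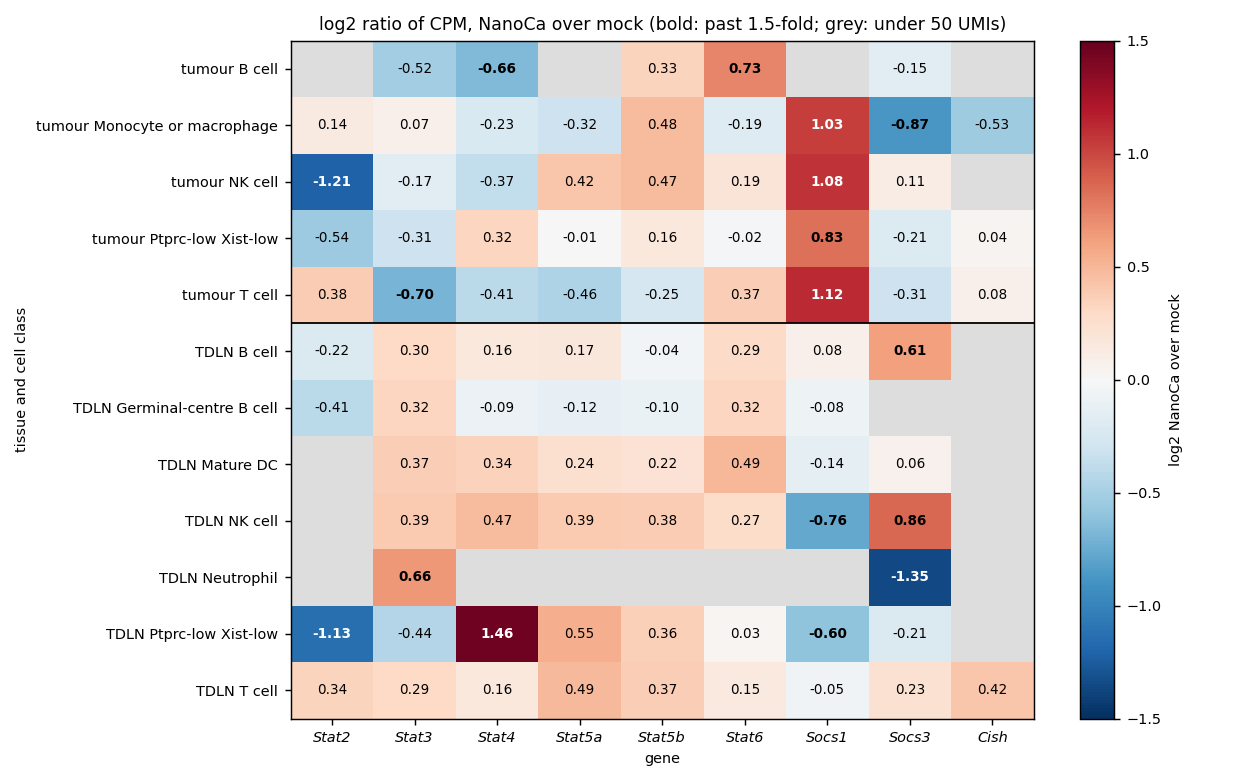
log2 ratio of CPM, NanoCa over mock, for each gene (columns) and class (rows, tumour above and TDLN below the line); red is higher and blue lower with NanoCa, bold is past 1.5-fold, and grey cells had under 50 UMIs over both libraries. Socs1 is past 1.5-fold upward in 4 tumour classes and downward in 2 TDLN classes. In cells thinned to 1000 UMIs both TDLN classes fell under 1.5-fold, and tumour monocytes and macrophages turned to log2 -0.60.

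A ratio with NanoCa was counted where the libraries of a class held at least 50 UMIs of the gene between them, and called past the fold at 1.5-fold or more. In the tumour, 5 of 40 such pairs of gene and class were past the fold upward and 4 downward, and in TDLN 4 and 4 of 48. In tumour T cells 2 of 9 members were past the fold, against 11.9% of all genes measured by the same rule. The count was 2 of 8 in tumour NK cells (11.7% of all genes), 2 of 9 in tumour monocytes and macrophages (11.6%), 2 of 5 in tumour B cells (14.0%) and 1 of 9 in tumour Ptprc-low Xist-low cells (10.4%). In TDLN it was 0 of 9 in T cells (11.0%), 1 of 8 in B cells (10.6%), 0 of 7 in germinal-centre B cells (9.29%) and 0 of 7 in mature DC (14.7%). It was 2 of 7 in TDLN NK cells (17.8%), 3 of 8 in TDLN Ptprc-low Xist-low cells (15.2%) and 2 of 2 in TDLN neutrophils (35.0%). With so few members in a class, these counts do not set the members apart from other genes.

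Socs1 was higher with NanoCa across the tumour. Tumour T cells held 124.5 (108 to 142) and 57.1 (48.4 to 66.9) CPM (log2 1.12, 0.82 to 1.43). NK cells held 99.2 (77.9 to 124.5) and 46.9 (35.4 to 61.1) CPM (log2 1.08, 0.56 to 1.61), and monocytes and macrophages 31.95 (27.6 to 36.8) and 15.6 (12.5 to 19.3) CPM (log2 1.03, 0.66 to 1.42). In each of these 3 classes the intervals of NanoCa and mock lay apart. Ptprc-low Xist-low cells held 42.5 (41.4 to 43.6) and 24.0 (23.1 to 24.9) CPM (log2 0.83, 0.76 to 0.89), and Socs1 was higher in 10 of 10 of their clusters with at least 50 UMIs, by log2 0.37 to 1.16. In T cells all 5 subsets were higher, from log2 0.53 in the subset called other T to 1.78 in Cd8-high cells not named cytotoxic, the latter on 18 and 10 UMIs. Of 10 tumour classes with at least 20 cells per library, 9 were higher, and neutrophils were the exception, with 2 and 7 UMIs. Thinned to 1000 UMIs per cell, the log2 ratio of monocytes and macrophages turned to -0.60 (-1.70 to 0.49), on 15 and 17 UMIs. Free RNA, estimated from Krt8, Krt18 and Rhox5, made up 28.2% and 23.05% of the UMIs of tumour T cells, and with it subtracted their log2 ratio was 1.22.

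In TDLN the direction of Socs1 was the opposite in several classes. NK cells held 98.3 (76.0 to 125) and 167 (145 to 191) CPM (log2 -0.76, -1.18 to -0.36). Ptprc-low Xist-low cells held 67.2 (63.6 to 71.0) and 102 (99.1 to 104.5) CPM (log2 -0.60, -0.69 to -0.51), lower in 4 of 4 of their clusters. The 79 and 180 monocytes and macrophages held 62.9 and 121 CPM (log2 -0.95, -1.33 to -0.59), and with under 100 cells in the NanoCa library they are not in the counts past the fold. These 3 classes each had intervals that lay apart, with NanoCa lower. In cells thinned to 1000 UMIs the log2 ratio was -0.44 (-1.62 to 0.66) in NK cells, on 11 and 23 UMIs, and -0.57 (-1.31 to 0.10) in Ptprc-low Xist-low cells, on 22 and 102 UMIs, both under 1.5-fold with intervals that held 0. TDLN T cells held 68.3 and 70.6 CPM (log2 -0.05, -0.14 to 0.04) and B cells 22.4 and 21.2 CPM (log2 0.08, -0.24 to 0.40), both intervals of the ratio holding 0. Within T cells the regulatory T-like subset was lower, at 111 and 149.8 CPM (log2 -0.43, -0.67 to -0.19), and the Cd4-high subset higher, at 50.9 and 44.5 CPM (log2 0.19, 0.03 to 0.36), both under 1.5-fold.

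**Figure D3:**
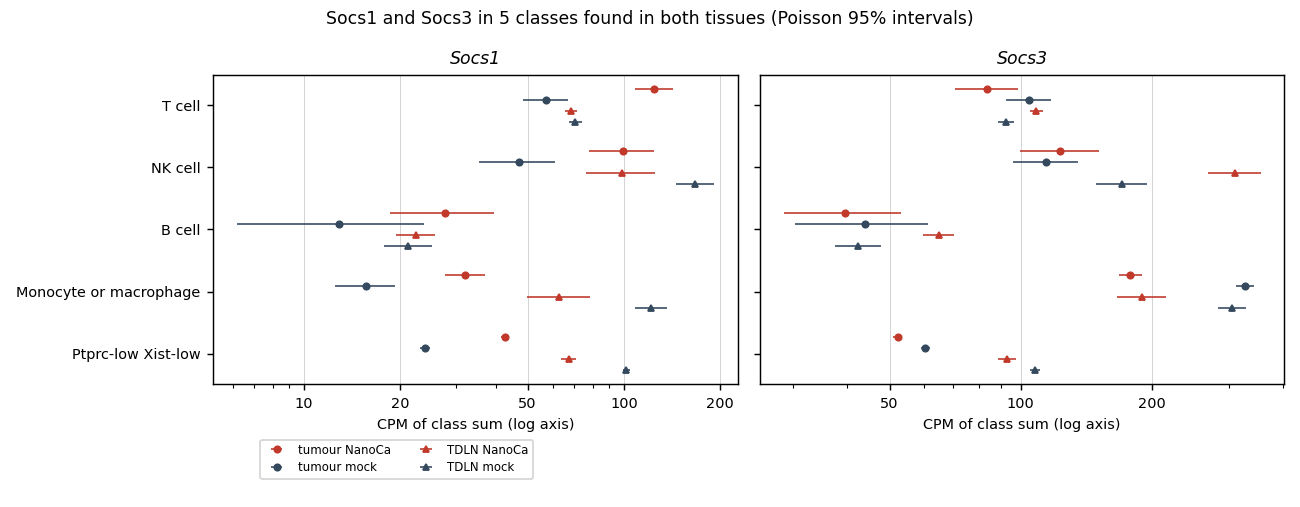
Socs1 (left) and Socs3 (right) in 5 classes found in both tissues, as CPM of the class sum on a log axis with exact Poisson 95% intervals; circles are tumour, triangles TDLN, red NanoCa and dark mock. For Socs1 in NK cells, monocytes and macrophages and Ptprc-low Xist-low cells, NanoCa lies to the right of mock (higher) in the tumour and to the left (lower) in TDLN.

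The 4 libraries stood in the same order for Socs1 in Ptprc-low Xist-low cells and in monocytes and macrophages: TDLN mock highest, then TDLN NanoCa, tumour NanoCa and tumour mock. The log2 ratio of tumour mock over TDLN mock was -2.96 (-3.32 to -2.61) in monocytes and macrophages, -2.09 (-2.15 to -2.02) in Ptprc-low Xist-low cells, -1.83 (-2.29 to -1.40) in NK cells and -0.31 (-0.55 to -0.07) in T cells. Socs1 shared its tumour pattern with other genes. Of 4598 genes with at least 50 UMIs in tumour T cells, NK cells, monocytes and macrophages and Ptprc-low Xist-low cells alike, 102 (2.22%), Socs1 among them, were past 1.5-fold upward in all 4 classes, and 3 (0.0652%) downward. Of 4264 of those genes also measured in TDLN NK and Ptprc-low Xist-low cells, 31 (0.727%), again with Socs1, were in addition past 1.5-fold downward in both. A difference of whole libraries and a response of the cells cannot be told apart here.

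Socs3 was lower with NanoCa in the monocytes and macrophages of both tissues. Those of the tumour held 178.5 (168 to 189.5) and 327 (312 to 343) CPM (log2 -0.87, -0.98 to -0.76). Those of TDLN held 189 (166 to 215) and 306 (284 to 328) CPM (log2 -0.69, -0.91 to -0.48). The intervals of NanoCa and mock lay apart in both tissues. In the tumour, 2 of the 3 clusters of the class had at least 50 Socs3 UMIs, at 371 and 618 CPM and at 130.1 and 233 CPM (log2 -0.73 and -0.84), and the third had 26 and 10 UMIs. The cytokine genes Il10, at 8.49 and 24.2 CPM (log2 -1.51), and Il6, at 6.32 and 16.9 CPM (log2 -1.42), whose products signal through STAT3, were lower in the same cells. Stat3 itself was at 107 and 102 CPM (log2 0.07, -0.09 to 0.24). Of genes known as STAT3 targets, 2 of 12 were past 1.5-fold upward and 1 downward in these tumour cells, with a median log2 ratio of -0.04. Over all genes there, 8.52% were upward and 3.03% downward. A link of Socs3 to any of these genes was not tested.

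NK, B and T cells of TDLN went the other way for Socs3. NK cells held 309.8 (269 to 355) and 171 (149 to 195) CPM (log2 0.86, 0.58 to 1.14). B cells held 64.95 (59.8 to 70.4) and 42.4 (37.5 to 47.8) CPM (log2 0.61, 0.40 to 0.83), and T cells 108.5 and 92.4 CPM (log2 0.23, 0.15 to 0.31). NK and B cells were past the fold and T cells were not. Tumour NK cells held 123 and 114 CPM (log2 0.11, -0.29 to 0.50) and tumour T cells 83.8 and 104 CPM (log2 -0.31, -0.61 to -0.02), both under 1.5-fold. TDLN neutrophils held 57.8 and 148 CPM (log2 -1.35, -2.24 to -0.53), on 18 and 43 UMIs. The mast cell genes Cma1 and Tpsab1 are among the leading genes of that cluster, and the mast cell gene Mcpt4 was at 632 CPM with mock and had no UMI with NanoCa. Macrophage genes were high there too, with C1qa at 478.5 and 2181.5 CPM, beside 3677 CPM in TDLN mock monocytes and macrophages, and Lyz2 at 3999 and 6204 CPM. The neutrophil gene S100a8 was at 3080 and 1127 CPM, beside 13136 and 19591 CPM in tumour neutrophils, and free RNA was estimated at 53.7% and 59.0% of the UMIs of the TDLN class. Their part in the neutrophil ratio was not tested, and at a clustering resolution of 0.5 the log2 ratio was -0.02.

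Stat3 was lower with NanoCa in tumour T cells, which held 189.7 (169.6 to 211) and 308 (288 to 330.1) CPM (log2 -0.70, -0.89 to -0.51). The makeup of the class moved with it. Cytotoxic Cd8-high cells, the highest in Stat3 at 597 and 719 CPM, numbered 30 with NanoCa and 112 with mock. With the cluster makeup held the same between libraries, the log2 ratio was -0.25, under 1.5-fold. By subset it ran from -0.31 in other T cells and -0.27 in cytotoxic Cd8-high cells to 0.21 in regulatory T-like cells and 0.59 in the remaining Cd8-high cells, the last on 15 and 19 UMIs.

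**Figure D4:**
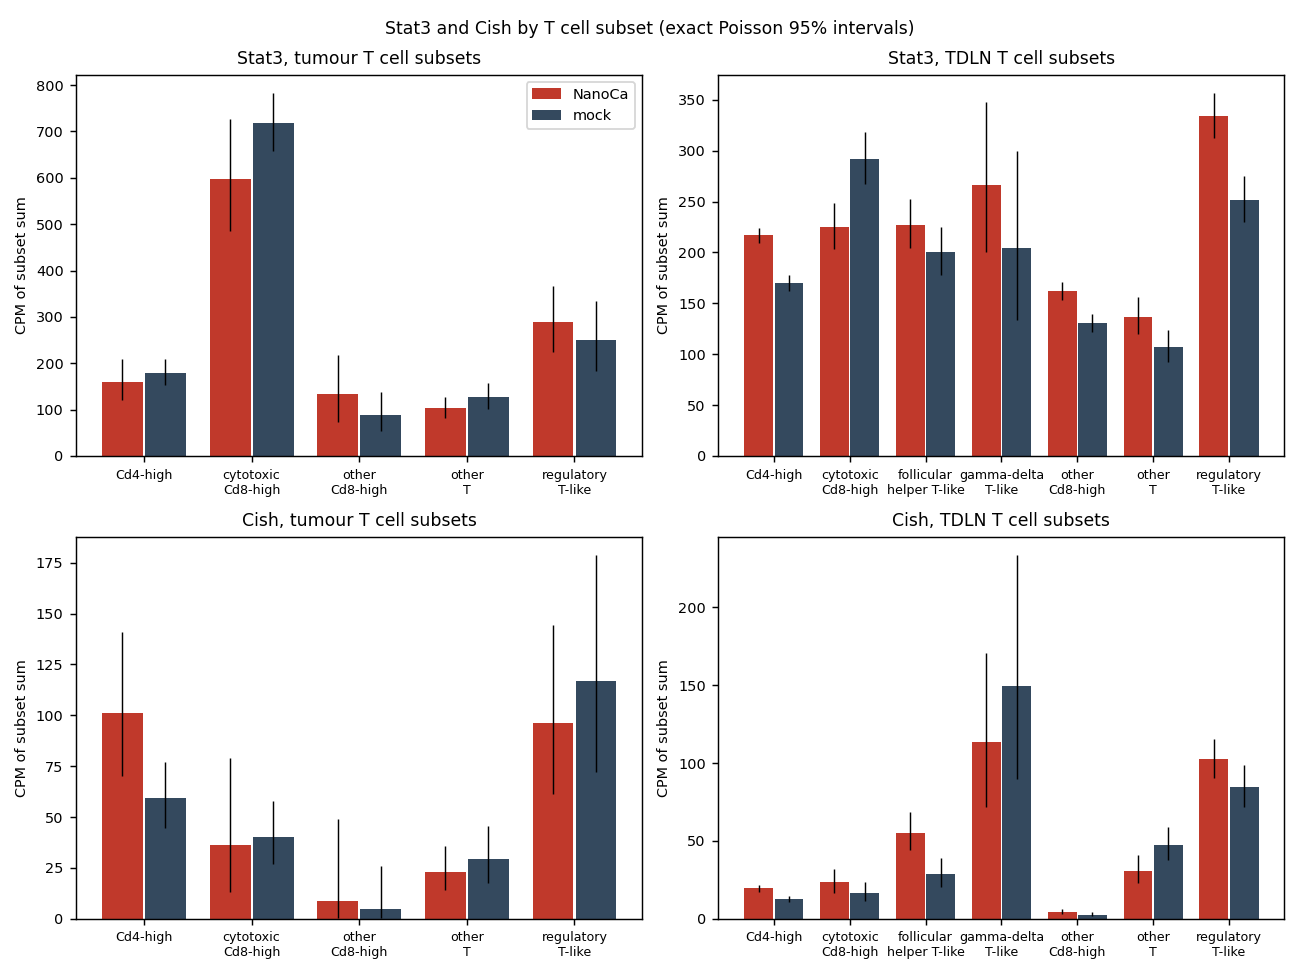
Stat3 (top) and Cish (bottom) in T cell subsets of tumour (left) and TDLN (right), as CPM of the subset sum; red bars are NanoCa, dark bars mock, and lines exact Poisson 95% intervals. Cytotoxic Cd8-high cells of the tumour stand highest for Stat3. For Cish, regulatory T-like cells stand high in both tissues, and gamma-delta T-like cells stand highest in TDLN.

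In TDLN T cells 8 of the 9 members were higher with NanoCa, all by less than 1.5-fold, and Socs1 was the exception. The median log2 ratio of the members was 0.2932, beside -0.0034 over all 12186 genes measured there. Stat5a stood at log2 0.49 (0.40 to 0.57), Cish at 0.42 (0.25 to 0.58), Stat5b at 0.37 (0.32 to 0.41), Stat2 at 0.34 (0.16 to 0.51) and Stat3 at 0.29 (0.24 to 0.35). Stat4 and Stat6 were higher by log2 0.16 and 0.15. Of genes known as STAT5 targets, 0 of 9 were past the fold upward and 1 downward in TDLN T cells, with a median log2 ratio of 0.02. Of STAT3 targets, 0 of 12 were upward and 3 downward, with a median of -0.09. Over all genes there, 2.67% were upward and 8.36% downward. Free RNA was 9.09% and 13.1% of the UMIs of these T cells, and with it subtracted Stat5a stood at 0.42 and Stat5b at 0.29. A single cluster of Cd4-high cells, led by the mast cell and macrophage genes Mcpt4, Ccl8 and Lyz2, held 268 and 1545 cells, and another, with the mast cell genes Cma1 and Tpsb2 among its leading genes, held 1186 and 212. The part of this uneven spread of Cd4-high cells over clusters in these ratios was not tested beyond holding the class makeup equal, where Stat5a stood at 0.41 and Stat5b at 0.27. By subset, Stat5a was higher in 6 of 7, the exception being other T cells at log2 -0.35. Cish was at 55.2 and 28.4 CPM (log2 0.96, 0.40 to 1.54) in follicular helper T-like cells and at 19.6 and 12.6 CPM (log2 0.63, 0.34 to 0.93) in Cd4-high cells. Tumour T cells went the other way for Stat5b, at 119 and 142 CPM (log2 -0.25, -0.51 to -0.01), and Stat4, at 113 and 149.7 CPM (log2 -0.41, -0.66 to -0.16), both under 1.5-fold.

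Other TDLN lymphocytes also held somewhat more Stat3 with NanoCa, by log2 0.30 (0.20 to 0.40) in B cells, 0.32 (0.13 to 0.51) in germinal-centre B cells and 0.39 (0.20 to 0.57) in NK cells. Cytotoxic Cd8-high T cells were the exception, at 225 and 292 CPM (log2 -0.37, -0.57 to -0.18). NK cells of TDLN held more Stat4, at a log2 ratio of 0.47 (0.28 to 0.67). They had 4 Cish UMIs with NanoCa and 42 with mock (5.96 and 33.2 CPM), under the minimum and so not among the pairs counted. Cish UMIs in tumour NK cells numbered 9 and 26.

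Summed over all kept TDLN cells without regard to class, Stat5a was at 54.3 and 23.9 CPM (log2 1.18) and Stat5b at 170.5 and 81.4 CPM (log2 1.07). Both ratios exceeded those within T cells. T cells made up 63.0% and 54.0% of the kept cells, and Ptprc-low Xist-low cells, with median depths of 57854.5 and 53745.5 UMIs, 3.33% and 11.1%.

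Stat2 was lower with NanoCa in the Ptprc-low Xist-low cells of both tissues. Those of TDLN held 13.3 (11.75 to 15.05) and 29.1 (27.7 to 30.6) CPM (log2 -1.13, -1.32 to -0.94), lower in 4 of 4 clusters by log2 -1.52 to -0.82. Those of the tumour held 10.3 (9.80 to 10.9) and 15.05 (14.4 to 15.8) CPM (log2 -0.54, -0.64 to -0.44), under 1.5-fold, and were lower in 7 of 10 measured clusters (log2 -1.39 to 0.13). The makeup of this tumour class differed too. Its cluster led by Ifit1, Cxcl10 and Gbp2 held 218 and 381 cells. Over 12 of its clusters, mock Stat2 ran from 5.53 to 66.4 CPM. The part of this makeup in the ratio is not given here. Irf9, the DNA-binding partner of STAT2, was at 11.8 and 17.7 CPM (log2 -0.58) in the tumour cells and 20.1 and 26.98 CPM (log2 -0.43) in the TDLN cells. Tumour NK cells had 11 and 40 UMIs of Stat2 at a log2 ratio of -1.21 (-2.32 to -0.22), and the log2 ratio was -0.16 when cells were thinned.

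Stat4 in TDLN Ptprc-low Xist-low cells was at 5.09 and 1.86 CPM (log2 1.46, 1.04 to 1.87), on 99 and 100 UMIs. Thinned to 1000 UMIs per cell these cells held 0 and 4 UMIs, too few for a ratio. Lymphocyte genes moved with it in those cells. Ptprc was at 18.3 and 8.79 CPM, the T cell gene Cd3e at 18.1 and 7.77 CPM and the B cell gene Cd79a at 19.96 and 11.0 CPM, and their part in the Stat4 ratio was not tested. In tumour B cells, Stat6 was at 64.25 and 38.7 CPM (log2 0.73, 0.09 to 1.40), on 70 and 30 UMIs. Stat4 there was at 30.3 and 47.75 CPM (log2 -0.66, -1.38 to 0.06), on 33 and 37 UMIs, and its interval held 0. So did that of Stat3 in TDLN neutrophils, at log2 0.66 (-0.21 to 1.56) on 32 and 19 UMIs.

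In the mock libraries several members differed between tissues, where tissue and library cannot be told apart. Tumour values are given first, then TDLN. Cish in T cells was at 46.3 and 19.7 CPM (log2 1.23, 0.93 to 1.52), and Stat3 at 308 and 172 CPM (log2 0.84, 0.73 to 0.95). Stat5b in T cells was lower in the tumour, at 142 and 266 CPM (log2 -0.90, -1.06 to -0.76), as was Stat5a, at 48.9 and 76.1 CPM (log2 -0.64, -0.91 to -0.38). Stat4 was lower in tumour B cells, at 47.75 and 185.5 CPM (log2 -1.96, -2.47 to -1.49), and in tumour NK cells, at 238 and 395 CPM (log2 -0.73, -0.95 to -0.51). Free RNA was 32.6% of the UMIs of tumour mock B cells and 16.3% of those of TDLN mock. With it subtracted the log2 ratio of Stat4 in B cells was -1.63.

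Around the members, 104 of 105 listed pathway genes were in the files. The Janus kinase genes Jak1, Jak2, Jak3 and Tyk2 stayed within 1.5-fold in T, B and NK cells of both tissues and in tumour monocytes and macrophages, where measured. In TDLN, 1 of 3 measured was past the fold upward in mature DC (8.12% of all genes) and 1 of 1 in neutrophils (20.4%). In TDLN Ptprc-low Xist-low cells 1 of 4 was past it downward (7.3% of all genes). Genes known to be induced by type I interferon through STAT2 and IRF9 were past the fold upward in 8 of 10 and downward in 1 in TDLN B cells, with a median log2 ratio of 1.28, beside -0.0254 over all genes, of which 2.59% were past the fold upward. In TDLN T cells the counts were 9 of 11 upward and 1 downward, with a median of 0.81, and 2.67% of all genes there were upward. The antiviral gene Ifit3 was at 18.9 and 3.64 CPM (log2 2.37) in TDLN B cells, and Ifit1 at 29.6 and 7.82 CPM (log2 1.92) in TDLN T cells. Usp18, whose product also restrains the type I interferon receptor, was at 17.25 and 7.46 CPM (log2 1.21) in those T cells. A T cell cluster led by such genes, Ifit1, Ifit3 and Isg15 among them, held 206 and 52 cells. Without it, in a comparison added after seeing the data, 5 of 11 were upward and 1 downward, with a median of 0.55, Ifit1 at 18.01 and 6.84 CPM (log2 1.40) and Usp18 at 12.4 and 6.96 CPM (log2 0.83). TDLN NK cells had 0 upward and 3 of 8 downward, beside 9.23% and 8.57% of all genes, with Ifit2 at 11.9 and 33.2 CPM (log2 -1.48). Tumour T and NK cells had 4 of 11 and 4 of 10 upward and 0 downward, beside 7.98% and 7.41% of all genes upward.

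Of genes known as STAT4 targets, 3 of 6 were past the fold downward in tumour T cells, beside 3.93% of all genes, including the receptor genes Il12rb2 at 26.8 and 49.65 CPM (log2 -0.89) and Il18rap at 26.8 and 45.5 CPM (log2 -0.77). The granzyme gene Gzmb, listed among STAT5 targets and not counted in those 6, was at 135 and 398 CPM (log2 -1.56). Cytotoxic Cd8-high cells, where Gzmb is highest among the tumour T clusters, numbered 30 with NanoCa and 112 with mock. Without them, in a comparison added after seeing the data, 0 of the 6 STAT4 targets were downward and 1 upward, with a median of 0.01. Il12rb2 was then at 18.7 and 20.9 CPM (log2 -0.16) and Il18rap at 20.6 and 30.6 CPM (log2 -0.57). Gzmb, outside the 6, was at 119.8 and 108 CPM (log2 0.15). Gzmb and the interferon gamma gene Ifng, a listed STAT4 target, were among the markers that named these cells, so this comparison cannot test either gene. Cytokine genes were downward in 6 of 9 and upward in 0 in tumour monocytes and macrophages, with a median of -0.69, beside 0.0956 over all genes, of which 3.03% were downward. Of STAT6 targets in those cells, 3 of 7 were upward, beside 8.52% of all genes, with Retnla, a gene of alternatively activated macrophages, at 176 and 3.815 CPM (log2 5.53). In TDLN NK cells Gzmb was at 1360 and 2911 CPM (log2 -1.10). The IL-7 receptor gene Il7r was at 264 and 107.5 CPM (log2 1.29) in TDLN NK cells, and the IL-6 receptor gene Il6ra at 62.8 and 24.3 CPM (log2 1.37) in tumour T cells.

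A few pathway genes crossed tissues the way Socs1 did. Cebpb, a transcription factor gene listed among STAT3 targets, was past the fold upward in all 5 tumour classes (log2 0.95 to 1.33) and lower in all 7 TDLN classes (log2 -1.34 to -0.48). Bcl3, which encodes an NF-kappaB cofactor, was at 23.85 and 13.1 CPM (log2 0.87) in tumour T cells and 17.97 and 41.2 CPM (log2 -1.20) in TDLN T cells. Socs5, another SOCS gene, was at 39.0 and 21.4 CPM (log2 0.86) in tumour Ptprc-low Xist-low cells and 25.8 and 40.0 CPM (log2 -0.63) in those of TDLN.

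The likeness of patterns was described over 24 profiles (12 classes, 2 libraries each), by Pearson r of log2(CPM + 1). The profiles share libraries and differ in depth, so r describes likeness and nothing more. Stat5a and Stat5b had an r of 0.92, Stat3 and Stat4 0.89, Socs1 and Socs3 0.22 and Stat2 and Socs1 -0.18. Among 6085 genes that reached 50 CPM in any profile, those most like Stat4 were Pnrc1 (0.96), P2ry10 (0.95) and Gramd1a (0.94). Stat5a was nearest to Peli1 (0.97), Fam53b (0.94) and Gypc (0.94), and Stat5b to Stk38 (0.97), Eya3 (0.96) and Arid4a (0.95). Stat3 was nearest to Rab8a (0.92), Crem (0.92) and Rbl2 (0.92), and Stat6 to Ifnar1 (0.91), Ifi214 (0.90) and Adgre5 (0.90). Cish was nearest to Iqgap2 (0.92), Fyb (0.91) and Ppp1r18 (0.90), and Socs3 to Zbp1 (0.91), Rtp4 (0.90) and Xaf1 (0.89). Stat2 and Socs1 had the loosest matches, Nus1 (0.80), Slc37a2 (0.73) and Larp1 (0.73) for Stat2, and Dnajc1 (0.80), Ccng1 (0.80) and Gm12216 (0.80) for Socs1.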

How the data were processed

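Raw UMI counts per gene and barcode (10x Genomics 3' v2 libraries, per the labels' protocols) were deposited by the authors, made with Cell Ranger 7.1.0 per the file headers. The sources used here do not give the genome build or annotation. Kept barcodes had 200 genes or more and up to 10% mitochondrial UMIs, and the highest Scrublet scores (scanpy 1.11.5) were removed at 0.8% per 1000 barcodes. Both libraries of a tissue entered 1 clustering (leidenalg 0.10.2) without the members and pathway genes. A cluster took the name of its best-scoring list with at least 3 markers enriched 1.5-fold or more. It stayed unnamed where another list had more markers among its 10 leading genes, or where its cells were shallow for their library and none of its own markers was among them. Clusters with both Ptprc and Xist under 20% of the median of named immune clusters were called Ptprc-low Xist-low, a rule set after the data were seen. The members, lists and rules were chosen with earlier results of these data known.

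UMIs were summed per class and library and expressed as CPM. Levels needed 20 or more cells per library, and ratios counted past the fold needed 100. A 0 was replaced by 3 counts in ratios, and no ratio was given where both counts were at most 3 or where that replacement reached the other level. All 9 members were named, with the 3 highest and 3 lowest pathway genes past the fold per class, of which a selection is given, and the 3 genes most like each member. Irf9, Bcl3 and Socs5 in classes outside that rule, and Cebpb across classes, were chosen after their values were seen. The number of UMIs in a class limits precision. Free RNA was estimated as the share of Krt8, Krt18 and Rhox5 UMIs in a class, divided by that share in all kept cells of its library. Empty droplets were not used, so the percentages are rough. The estimate was capped at 100%, which tumour fibroblasts reached in both libraries. The interval code was tested on simulated counts. Scaling alternatives used edgeR 4.0.16 (R 4.3.3).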

Additional observations from a re-analysis of the deposited data

Results flagged for a closer look

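Socs1 in NK cells moved in opposite directions with NanoCa in the 2 tissues, with 99.2 and 46.9 CPM (NanoCa and mock) in the tumour and 98.3 and 167 CPM in TDLN. The tumour log2 ratio exceeded the TDLN log2 ratio by 1.84. Socs1 in Ptprc-low Xist-low cells did the same, with 42.5 and 24.0 CPM in the tumour and 67.2 and 102 CPM in TDLN, and a difference between the log2 ratios of 1.42. With 1 library per group these differences were not tested.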

How the results depend on the processing

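Of the 9 tumour pairs of member and class past 1.5-fold, 5 kept that under each of the 7 or 8 alternatives tried for them, and of the 8 TDLN pairs 3 did, while Stat4 in TDLN Ptprc-low Xist-low cells kept it under 6 and had no ratio when thinned. In the tumour the count upward (5) was 3 with at least 200 UMIs and 3 at 2-fold, and the count downward (4) was 8 with cells thinned to 1000 UMIs, 2 with at least 200 UMIs and 1 at 2-fold. In TDLN the count upward (4) was 8 with cells thinned, 8 with at least 10 UMIs, 2 with at least 200 UMIs and 1 at 2-fold, and the count downward (4) was 2 at 2-fold. After thinning, 6 of the 8 upward TDLN pairs and 3 of the 8 downward tumour pairs rested on fewer than 50 UMIs. Stricter minimums and folds leave fewer pairs by construction, and the cause of the other shifts was not tested. Thinning turned the ratio of Socs1 in tumour monocytes and macrophages to -0.60 and took Stat4 in tumour B cells (-0.21), Stat2 in tumour NK cells (-0.16), Socs1 in TDLN NK cells (-0.44) and Socs1 in TDLN Ptprc-low Xist-low cells (-0.57) under the fold. Stat3 in tumour T cells lost it with the same cluster makeup (-0.25), Socs3 in TDLN neutrophils at resolution 0.5 (-0.02), and Stat3 in TDLN neutrophils under 4 alternatives. Of the member ratios, thinning moved 31 of 85 and reversed 1, free RNA subtraction moved 14 of 108, same makeup 5 of 88 and TMM scaling 5 of 134, while median-of-ratios scaling and clustering on all variable genes moved 0 of 88. TMM shifted TDLN neutrophils by -0.14 on the log2 scale and the tissue ratios of neutrophils by 0.27 and of NK cells, plasmacytoid DC and Ptprc-low Xist-low cells by 0.11 to 0.12, and the other NanoCa classes by less than 0.1. No paired analysis was possible because each group holds 1 library. With 1 library per group no replicate could be left out, and classes with few UMIs, such as TDLN neutrophils, limit what can be seen.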
